A study of Mus musculus with 100 samples.

Results

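The 10 genes described here are parts of the circadian clock or its direct output: Arntl (also called Bmal1), Npas2, Per1, Per2, Per3, Dbp, Tef, Nr1d1, Nr1d2 and Bhlhe41. They were chosen by name, from 17310 genes with counts in whole knee joints of mice, as a check of the time of day at which joints were taken and of the clock phase of the strains. All 10 had counts in every library and passed the filter on low counts. The study profiled 100 RNA-seq libraries in 21 groups of 4 to 5 joints. Joints came from MRL/MpJ, C57BL/6 and STR/ort mice, inbred strains labelled not, moderately and highly susceptible to post-traumatic osteoarthritis. Mice were 10 weeks old at injury. Age therefore rose with collection time, and age and time cannot be told apart in comparisons between times. The right knee of each injured mouse was loaded with 10 to 12 N along the tibia under isoflurane until the anterior cruciate ligament ruptured, and buprenorphine was given afterwards. The injured joint and the uninjured contralateral joint were collected at 1-day, at 1-week or at 2-weeks, so the uninjured joints of these times come from mice that carried an injury in the other leg, whereas the 0-day joints were taken before injury. Joints were cut out with traces of soft tissue and processed whole, which mixes bone, marrow, cartilage, synovium and muscle, and in such bulk RNA fewer cells of a type and less RNA per cell cannot be told apart. The labels give no hour of collection. Hour of collection and group can therefore not be told apart in any comparison between strains or times. At 2-weeks the labels give both joints of each mouse.

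The mammalian clock is a feedback loop of transcription in nearly every cell, set to the day by the brain and, in joint tissues, also by glucocorticoids, temperature and feeding. ARNTL pairs with CLOCK or NPAS2 and activates genes that carry E-boxes, among them Per1, Per2, Per3, Nr1d1, Nr1d2, Dbp, Tef and Bhlhe41. PER proteins, with CRY partners, inhibit that activation, and NR1D1 and NR1D2 (REV-ERB alpha and beta) repress Arntl and Npas2, so Arntl and Npas2 peak close to the time at which Dbp and Nr1d1 are at their lowest. Cartilage, bone, muscle and synovium each run such a loop, and Per1 is in addition known to be induced within an hour or so by acute signals. These facts are background and were not tested here.

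RefSeq promoters, stretches of equal length that reach from before a start site to just after it, were matched for 9 of the 10 genes (12 entries). The E-box, with the letters CACGTG on either strand, was found in 4 of the 12 member promoters, in 3 of 9 genes, and in 7.15% of all 32851 promoters of the same length. The variant with the letters CACGTT on either strand was found in 1 member promoter and in 4.68% of all promoters. The 100-base windows that hold these letters are printed because they are the parts of the members closest to the activator named above, with the motif in capitals, on the strand of the gene, in build GRCm38.p6. They lie at chr6:145865521-145865620 (minus strand) for Bhlhe41, chr11:69098736-69098835 (plus) for Per1, chr15:81802499-81802598 and chr15:81811229-81811328 (both plus) for the 2 start sites of Tef, and chr11:98775378-98775477 (minus) for Nr1d1, where the CACGTT letters read AACGTG on the strand of the gene.
Bhlhe41: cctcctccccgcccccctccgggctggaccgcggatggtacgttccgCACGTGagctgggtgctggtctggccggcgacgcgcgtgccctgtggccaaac
Per1: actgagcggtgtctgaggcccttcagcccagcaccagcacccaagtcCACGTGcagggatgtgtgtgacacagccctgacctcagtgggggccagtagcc
Tef, upstream start site: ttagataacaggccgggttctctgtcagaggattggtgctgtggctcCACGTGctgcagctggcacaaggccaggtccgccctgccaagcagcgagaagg
Tef, downstream start site: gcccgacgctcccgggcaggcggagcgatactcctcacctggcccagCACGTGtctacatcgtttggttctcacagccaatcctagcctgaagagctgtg
Nr1d1: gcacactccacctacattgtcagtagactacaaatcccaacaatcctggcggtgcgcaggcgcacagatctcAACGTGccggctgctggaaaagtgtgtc
The motif began 153 bases before the start site in Bhlhe41, 166 in Per1, 127 and 138 at the start sites of Tef and 28 in Nr1d1. A match is a description of letters in these windows only. The windows of Dbp, Per3, Nr1d2, Arntl and Npas2 held neither set of letters.

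In the RefSeq annotation of the same build the activators are Arntl at chr7:113178471-113314126 and Npas2 at chr1:39193702-39363240. The repressors are Per1 at chr11:69095108-69109965, Per2 at chr1:91415977-91459351, Per3 at chr4:150997018-151044707, Nr1d1 at chr11:98767932-98775377, Nr1d2 at chr14:18204056-18239106 and Bhlhe41, which competes for the E-box, at chr6:145858243-145865420. The output factors of the PAR bZIP family are Dbp at chr7:45705100-45710203 and Tef at chr15:81802673-81826863. Nr1d1 overlaps the end of Thra by 1075 bases, Dbp overlaps Sphk2 by 741 bases and Per3 contains Uts2 over 4714 bases, and the strand setting of the counting is not given in the sources used here, so reads in those stretches may belong to either gene. Thra was called in no comparison.

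Library totals ran from 6182016 to 20986027 counts, with a median of 10582592. The lowest count of a member in any library was 8 for Npas2, 13 for Dbp, 31 for Bhlhe41 and at least 64 for the other members, so the values of Npas2 and Dbp carry the most counting error. Levels are CPM, counts relative to the size of each library, scaled by TMM factors over all libraries. The 2-weeks libraries form experimental batch 2 of the labels and all others batch 1, so 2-weeks was never tested against another time, and time and batch cannot be told apart there. The 9 STR/ort libraries of 1-week stand apart from the rest in the clock genes, as described next, and the ranges over groups and the correlations are also given without them, and the strain by time tests without the 1-week libraries of all strains. Markers of muscle, cartilage, bone, neutrophils of the marrow, erythroid cells, fat and synovium were present in all 21 groups, and of 5 skin keratin and cornified layer genes only 1 was among the genes with counts.

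Over the 15 groups of batch 1, the ratio of the highest to the lowest group mean was 16.2 for Npas2, 7.49 for Dbp, 4.8 for Arntl, 3.53 for Per1, 3.3 for Nr1d1, 3.18 for Tef, 2.81 for Nr1d2, 2.62 for Per3, 2.28 for Bhlhe41 and 1.92 for Per2. Without the STR/ort groups of 1-week the ratio was 5.15 for Npas2, 3.42 for Arntl, 2.29 for Nr1d1, 2.21 for Dbp, 2.09 for Bhlhe41, 1.82 for Tef, 1.73 for Per3 and 1.39 for Nr1d2, and Per1 and Per2 kept theirs. With the 2-weeks groups included it was 16.8 for Dbp and 4.72 for Per3, and these ratios also hold the difference between batches. STR/ort injured joints of 1-week had the highest mean of Arntl and Npas2 and the lowest of Dbp, Tef, Nr1d1 and Bhlhe41, and STR/ort uninjured joints of 1-week had the lowest of Per3 and Nr1d2. The highest means of Per3, Dbp, Tef, Nr1d1, Nr1d2 and Bhlhe41 were all at 2-weeks. Per1 was highest in STR/ort at 0-day, and Per2 in MRL/MpJ uninjured joints at 1-day.

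**Figure D1:**
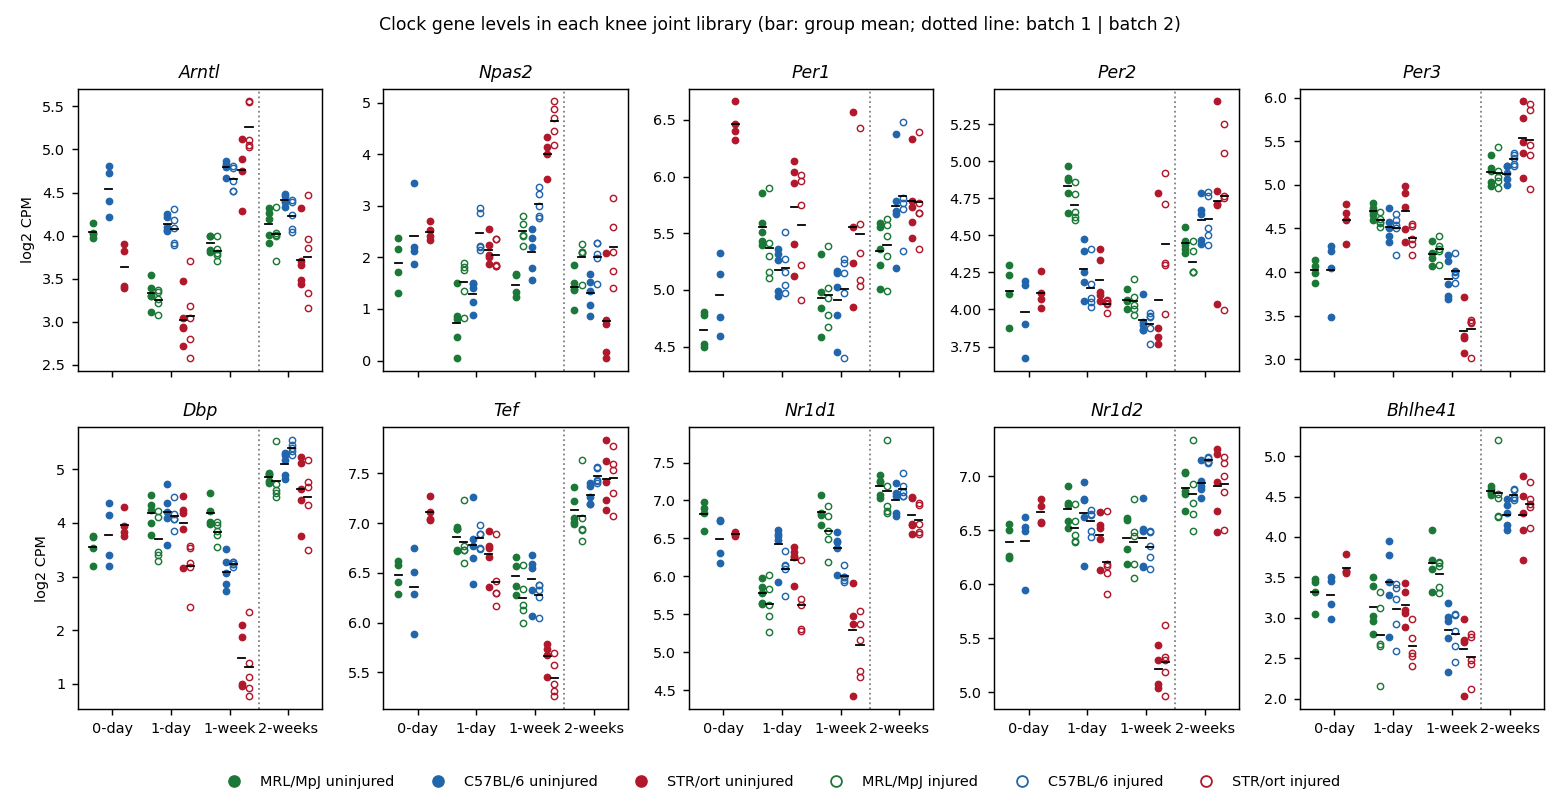
Level of each of the 10 clock genes in every library (points, log2 CPM) by strain, time and joint, with the group mean as a bar and the dotted line between batches 1 and 2. The 9 STR/ort libraries of 1-week lie above every other library for Npas2 (11.3 to 32.3 CPM) and below every other library for Dbp (1.51 to 4.9 CPM), Tef and Nr1d2.

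In the 9 STR/ort libraries of 1-week, in both joints, Npas2 was high and Dbp, Tef and Nr1d2 were low. Npas2 ranged from 11.3 to 32.3 CPM, and all 9 libraries lay above the highest of the other 91 libraries, at 10.6. Dbp ranged from 1.51 to 4.9 CPM, and all 9 lay below the lowest of the others, at 5.21. Tef (38.1 to 54.9 CPM against a lowest value of 59.1 elsewhere) and Nr1d2 (30.9 to 49.2 against 60.1) were separated in the same way. How many of all genes were separated likewise was not counted. In uninjured joints of 1-week, 22.2% of all genes passed an adjusted p below 0.05 and a fold above 1.5 in STR/ort against C57BL/6. Against MRL/MpJ 24.4% did. Arntl reached 19.3 to 46.9 CPM, with 7 of 9 libraries above the highest of the other libraries, at 29. For Per3 8 of the 9 libraries lay below the other 61 libraries of batch 1, for Nr1d1 4 and for Bhlhe41 2, whereas Per1 and Per2 lay within the range of the others in all 9. The log2 ratio of Dbp to Arntl puts the opposed pair on a common scale: its group medians were -3.46 in uninjured and -4.07 in injured STR/ort joints of 1-week, against -1.77 to 1.34 in the other 19 groups.

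**Figure D2:**
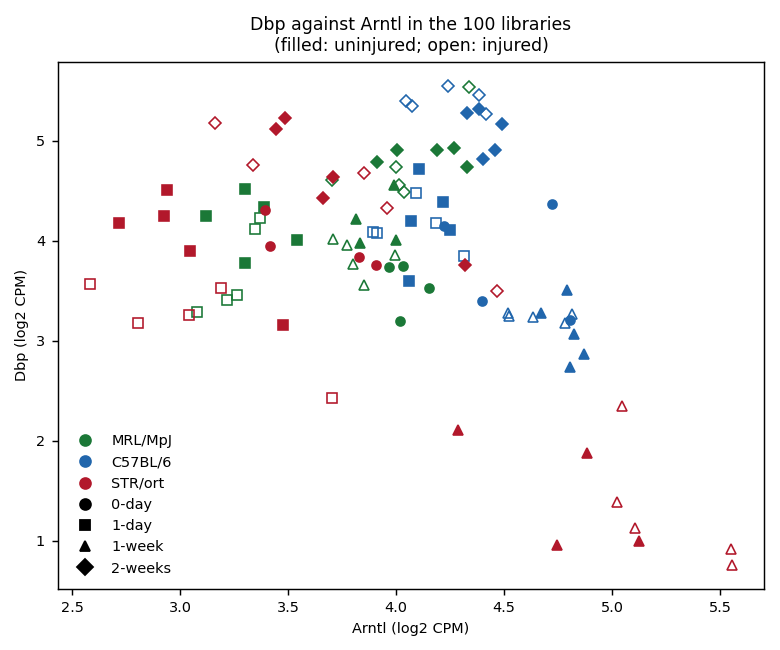
Dbp against Arntl in each of the 100 libraries (both axes log2 CPM), coloured by strain, with the shape for time and filled points for uninjured joints. The STR/ort libraries of 1-week form the corner with high Arntl and low Dbp.

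Across the uninjured joints of batch 1, the group means of Dbp ran, from the lowest, through 2.79 CPM in STR/ort at 1-week, 8.49 in C57BL/6 at 1-week, 11.7 in MRL/MpJ at 0-day, 14.4 in C57BL/6 at 0-day, 15.6 in STR/ort at 0-day, 16.6 in STR/ort at 1-day, 18.2 in MRL/MpJ at 1-day and 18.3 at 1-week to 18.8 in C57BL/6 at 1-day. Only the lowest step, between STR/ort and C57BL/6 at 1-week, separated neighbours whose libraries did not overlap. Npas2 ran from 1.57 in MRL/MpJ at 1-day through 2.28 in C57BL/6 at 1-day, 2.61 in MRL/MpJ at 1-week, 3.67 in MRL/MpJ at 0-day, 4.22 in C57BL/6 at 1-week, 4.29 in STR/ort at 1-day, 5.49 in STR/ort at 0-day and 5.67 in C57BL/6 at 0-day to 16.1 in STR/ort at 1-week. Again only the step to STR/ort at 1-week was free of overlap. Arntl ran from 8.05 in STR/ort at 1-day through 9.91 in MRL/MpJ at 1-day, 12.4 in STR/ort at 0-day, 14.9 and 16.3 in MRL/MpJ at 1-week and 0-day, and 17.5 and 23.3 in C57BL/6 at 1-day and 0-day to 27.5 in STR/ort and 27.6 in C57BL/6 at 1-week, and every pair of neighbours in that order overlapped.

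To ask how the clock genes of the uninjured joints moved over the collection times within a strain, times were compared with the quasi-likelihood test of edgeR over all 17310 genes, and a gene was called at a Benjamini-Hochberg adjusted p below 0.05 and a fold above 1.5. The 3 time comparisons of a strain share samples. In STR/ort at 1-week against 1-day, 7 of 10 clock genes were called while 1.87% of all genes were: Arntl and Npas2 rose, and Per3, Dbp, Tef, Nr1d1 and Nr1d2 fell. Arntl was 10.9, 6.38, 7.47, 7.4 and 8.08 CPM in the 5 joints of 1-day and 26.6, 34.7, 19.3 and 29.4 in the 4 joints of 1-week. Dbp was 8.74, 17.9, 22.6, 18.8 and 14.7 CPM at 1-day and 1.76, 1.81, 4.11 and 3.49 at 1-week. Both genes had all joints of 1-week on the same side of all joints of 1-day, Arntl above and Dbp below. Arntl had a log2 difference of 1.75 (SE 0.14, adjusted p = 1.52e-11), Npas2 of 1.89 (SE 0.23, adjusted p = 4.96e-07), and Dbp of -2.50 (SE 0.30, adjusted p = 3.72e-07). The others were Per3 at -1.36 (SE 0.15), Nr1d2 at -1.25 (SE 0.15), Tef at -1.04 (SE 0.14) and Nr1d1 at -0.84 (SE 0.17), of which Nr1d1 alone overlapped between the groups, at 21.2 to 60.1 CPM against 58.5 to 83.6. The median log2 difference was -0.68 over the members and 0.01 over all genes.

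None of the 8 lists of tissue markers (muscle, cartilage, bone, marrow neutrophils, erythroid cells, fat, skin, synovium and fibroblasts) had a called member in that comparison, and the summed muscle level was 27200 to 53600 CPM at 1-week against 30100 to 52400 at 1-day. Beside the clock genes, Fkbp5, a target of the glucocorticoid receptor, rose by 1.43 on the log2 scale (SE 0.09, adjusted p = 7.91e-15), from 46.3 to 53.6 CPM at 1-day to 111 to 144 at 1-week. Of the 7 glucocorticoid-induced genes listed, 3 rose (Fkbp5, Mt2 and Zbtb16), and the list summed to 405 to 533 CPM at 1-day and 727 to 1080 at 1-week. The 6 heat shock genes summed to 2650 to 3010 CPM at 1-day and 3350 to 4440 at 1-week. The part of these lists in the clock gene differences was not tested. Of the 15 other clock genes listed, 3 were called: Nfil3, a repressor of the sites that Dbp and Tef occupy, rose by 1.27 (SE 0.12), while Hlf, the third PAR bZIP factor, and Ciart, an inhibitor of the ARNTL complex, fell by 0.81 and 1.13. None of the 7 clock output genes listed was called.

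Against 0-day the STR/ort joints of 1-week gave 9 of 10 clock genes called, beside 13.8% of all genes: Arntl (1.17, SE 0.14) and Npas2 (1.57, SE 0.24) rose, and Per1, Per3, Dbp, Tef, Nr1d1, Nr1d2 and Bhlhe41 fell. Dbp fell by 2.38 (SE 0.31, adjusted p = 2.44e-07), Tef by 1.42 (SE 0.15), Nr1d2 by 1.42 (SE 0.15), Per3 by 1.23 (SE 0.15) and Nr1d1 by 1.14 (SE 0.17). Their joints did not overlap between the times. Per1 fell by 0.74 (SE 0.22, adjusted p = 0.00873), and its joints overlapped, since replicate 4 of 1-week, at 94.6 CPM, lay among the 0-day joints of 80.1 to 101 CPM. Without that replicate the difference was -1.20, and without replicate 1 it was -0.54 (adjusted p = 0.0609). The median was -1.05 over the members and 0.08 over all genes. Here the tissue lists moved as well: all 6 muscle genes fell, from a sum of 73800 to 83400 CPM at 0-day, and all 5 synovium and fibroblast genes rose. The 8 immediate early genes all fell, from a sum of 1300 to 2310 CPM at 0-day to 210 to 328 at 1-week, and their part in the fall of Per1 was not tested. With the muscle level as a covariate, Nr1d1 (-0.58, adjusted p = 0.0501), Per1 (-0.53, adjusted p = 0.322) and Bhlhe41 (-0.30, adjusted p = 0.514) were no longer called and the other 6 genes stayed past both thresholds. With a factor of unwanted variation estimated from 25 housekeeping genes (RUVg) as a covariate, Per1 and Bhlhe41 (-0.47) were lost. Of the other clock genes 5 of 15 were called, among them Nfil3, which was higher, and Bhlhe40, Hlf and Ciart, which were lower.

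STR/ort joints of 1-day against 0-day gave 1 clock gene, Per1, beside 10% of all genes. Per1 was 87.8, 80.1, 101 and 84.3 CPM at 0-day and 70.4, 61.2, 42.1, 65.8 and 34.7 at 1-day, lower in every joint, with a log2 difference of -0.66 (SE 0.21, adjusted p = 0.014). Muscle fell in 6 of 6 genes here too, and Per1 was not called with the muscle level as a covariate (-0.49, adjusted p = 0.315), with the RUVg factor, or without any of 3 libraries (closest to 0, -0.53). The immediate early genes, which mark acute stimulation, fell in 8 of 8, from a sum of 1300 to 2310 CPM at 0-day to 211 to 902 at 1-day. Glucocorticoid-induced genes fell in 5 of 7, from 791 to 1080 CPM to 405 to 533, and heat shock genes in 5 of 6, from 3920 to 4410 CPM to 2650 to 3010. Synovium and fibroblast genes rose in 2 of 5, from 12100 to 14300 CPM to 17500 to 22000. Other than for muscle, the part of these in the change of Per1 was not tested.

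**Figure D3:**
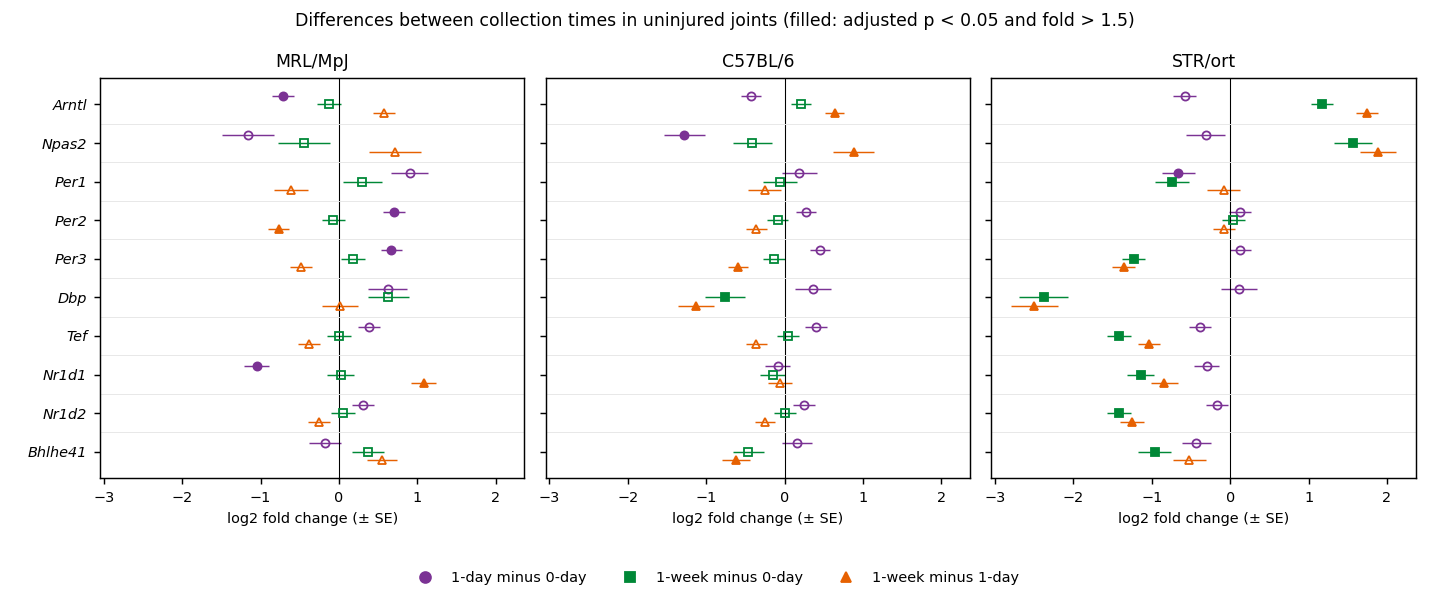
Log2 differences between times in the uninjured joints of each strain for the 10 clock genes, with bars of 1 SE. STR/ort at 1-week shows differences of both signs, from 1.89 for Npas2 to -2.50 for Dbp, and MRL/MpJ shows Nr1d1 falling by 1.05 at 1-day and standing 1.08 higher at 1-week than at 1-day.

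MRL/MpJ joints had few called genes over time. At 1-day against 0-day only 0.0867% of genes were called, 15 genes, and 4 of them were clock genes: Nr1d1 and Arntl fell, and Per2 and Per3 rose. Nr1d1 was 126, 114, 119 and 96.7 CPM at 0-day and 63.1, 57.8, 54.9, 50 and 49.5 at 1-day. All joints of 1-day lay below all joints of 0-day, and the log2 difference was -1.05 (SE 0.16, adjusted p = 0.00124). Arntl went from 15.5, 16.2, 17.6 and 16 CPM to 8.49, 9.65, 9.67, 10.3 and 11.5 (-0.71, SE 0.14, adjusted p = 0.0235). Per2 went from 17, 19.5, 18.6 and 14.5 CPM to 31.1, 29.2, 25, 27.4 and 29.4 (0.70, SE 0.14, adjusted p = 0.0159), and Per3 from 14.5 to 17.5 CPM to 24 to 27.6 (0.67, SE 0.14, adjusted p = 0.0293). None of the 4 overlapped between the times, which is no separate test of genes already called on these values. The calls of Arntl and Per3 were each lost with any of 8 libraries left out and that of Per2 with any of 3, their differences staying within -0.77 to -0.66, 0.63 to 0.72 and 0.63 to 0.75, and the call of Nr1d1 was kept with every library left out. Per3 was also lost with housekeeping scaling (0.71, adjusted p = 0.068). Among the other called genes, chosen after their values were seen, were Banp, Gprc5c, Nmrk2, Loxl4, Fmo2, Nudt7, Lipc, Cys1, Serpini1 and Fam101a. None of the tissue marker lists, other clock genes or output genes had a called member.

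At 1-week Nr1d1 and Per2 of MRL/MpJ lay near their 0-day levels again. Against 1-day, 0.052% of genes were called, 9 genes, and 2 were clock genes: Nr1d1 rose to 134, 114, 102 and 112 CPM (1.08, SE 0.16, adjusted p = 0.000592) and Per2 fell to 15.8, 16.4, 17.4 and 16.5 CPM (-0.77, SE 0.13, adjusted p = 0.00267). Neither overlapped with 1-day. The other 7, again named after their values were seen, were Banp, Nmrk2, Fmo2, Dnajb13, Efr3b, 1810011O10Rik and Cys1. Against 0-day no gene was called in MRL/MpJ at 1-week, 0% of all genes by edgeR and 0 genes by DESeq2, with 953 genes and 1 clock gene at an unadjusted p below 0.05.

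In C57BL/6 the uninjured joints of 1-week against 1-day gave 5 of 10 clock genes beside 4.56% of all genes. Arntl (0.64, SE 0.12, adjusted p = 0.000251) and Npas2 (0.88, SE 0.26, adjusted p = 0.0225) rose, and Dbp (-1.13, SE 0.23, adjusted p = 0.000662), Per3 (-0.59, SE 0.13) and Bhlhe41 (-0.62, SE 0.18) fell. Arntl, Npas2, Dbp and Per3 had the same signs in STR/ort. Dbp was 18.2, 26.1, 20.7, 11.9 and 17 CPM at 1-day and 8.2, 7.09, 9.48, 11.2 and 6.49 at 1-week, without overlap, and Arntl was 16.5 to 18.9 against 25.3 to 29 CPM. The calls of Per3, Bhlhe41 and Npas2 were lost when any of 5, 4 and 2 libraries was left out, and Per3 also with DESeq2, RLE size factors and housekeeping scaling (-0.58 in each). Hlf and Ciart fell among the other clock genes, 2 of 15. Cartilage (6 of 6), bone (5 of 5), fat (5 of 5) and synovium (5 of 5) markers fell as well, and their part in these clock gene differences was not tested. Against 0-day, Dbp alone was called at 1-week (-0.76, SE 0.25, adjusted p = 0.0298), beside 5.69% of all genes, its joints overlapped, and the call was lost when any of 5 libraries was left out. At 1-day against 0-day 0.0635% of genes were called, 11 genes, of which Npas2 was a clock gene (-1.28, SE 0.26, adjusted p = 0.043). That value rested on 0-day replicate 4, at 10.6 CPM against 3.47 to 4.44 in the other 3 joints, without which it was -0.80 (adjusted p = 0.629), and the call was lost when any of 15 libraries was left out.

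The difference between strains in their course over time was tested for each gene in a joint model of strain and time. All 10 clock genes passed at an adjusted p below 0.05, while 31.7% of all genes did. Adjusted p was 5.85e-07 for Nr1d1, 2.89e-06 for Tef, 2.92e-06 for Arntl and for Nr1d2, 3.22e-06 for Dbp, 3.15e-05 for Per3, 0.00011 for Npas2, 0.000582 for Bhlhe41, 0.0023 for Per1 and 0.025 for Per2. Without the 1-week libraries 4 of 10 passed, beside 19.6% of all genes: Nr1d1 (0.000657), Per1 (0.000196), Per2 (0.018) and Tef (0.00548). Per2 was also lost without replicate 1 of MRL/MpJ at 1-day (0.0558), and with the RUVg factor Per1 (0.124) and Per2 (0.0541) were lost. Of the other clock genes 7 of 15 passed and of the output genes 5 of 7.

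Strains were then compared at each time in uninjured joints, where the 3 pairs share samples. Before injury, Per1 was high in STR/ort: 87.8, 80.1, 101 and 84.3 CPM, against 39.8, 26.9, 35.2 and 24 in C57BL/6 and 27.8, 27.3, 22.4 and 22.8 in MRL/MpJ. No STR/ort joint overlapped with another strain. Against C57BL/6, 3 of 10 clock genes were called beside 13.8% of all genes: Per1 at 1.45 (SE 0.12, adjusted p = 7.1e-08), Tef at 0.69 (SE 0.13) and Arntl at -0.95 (SE 0.14, adjusted p = 3.76e-05). Against MRL/MpJ, 3 were called beside 14.8%: Per1 at 1.81 (SE 0.13, adjusted p = 5.31e-09), Tef at 0.64 (SE 0.13) and Per3 at 0.59 (SE 0.14). C57BL/6 against MRL/MpJ gave no clock gene by edgeR or DESeq2 beside 15.9% of all genes. At an unadjusted p below 0.05 (edgeR) there were 4 of 10 clock genes, beside 7438 of all 17310 genes. Tef was lost without replicate 4 of C57BL/6 or of MRL/MpJ respectively, and Per3 without any of 4 libraries, and with the RUVg factor Tef was lost against both strains (0.36 and 0.54) and Per3 against MRL/MpJ (0.53).

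Values that moved with STR/ort at 0-day were large. The 8 immediate early genes summed to 1300 to 2310 CPM in STR/ort, 180 to 261 in C57BL/6 and 224 to 257 in MRL/MpJ, and all 8 were called higher against both strains. The 7 glucocorticoid-induced genes summed to 791 to 1080 CPM against 310 to 361 and 315 to 353, with 5 called higher against each strain and 1 called lower against MRL/MpJ. Muscle was higher than in C57BL/6 in 6 of 6 genes, at 73800 to 83400 against 31600 to 51800 CPM, but in 0 of 6 genes against MRL/MpJ, at 70000 to 84700. Erythroid genes were lower than in C57BL/6 in 4 of 5 and than in MRL/MpJ in 5 of 5, at 1760 to 1940 against 2580 to 3070 and 3940 to 4800 CPM. Of the 5 synovium and fibroblast genes 3 were called higher than in MRL/MpJ, at 12100 to 14300 against 7620 to 9020 CPM, and of the 6 heat shock genes 5 were called higher than in C57BL/6 and 4 than in MRL/MpJ, at 3920 to 4410 against 2500 to 2790 and 2790 to 3150 CPM. Of the 6 cartilage genes 4 were called lower than in C57BL/6 and 2 higher than in MRL/MpJ. The part of these lists in the clock gene differences was not tested, other than for muscle. With the muscle level as a covariate the difference of Tef from C57BL/6 turned to -0.14 (adjusted p = 0.845), and Per1 (0.88, adjusted p = 0.0766) and Arntl (-0.44, adjusted p = 0.573) were no longer called. The 3 calls against MRL/MpJ were kept with that covariate.

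At 1-day STR/ort against C57BL/6 gave 3 clock genes beside 10.5% of all genes: Arntl at -1.10 (SE 0.14, adjusted p = 6.53e-07), Npas2 at 0.90 (SE 0.23, adjusted p = 0.00291) and Per1 at 0.61 (SE 0.19). STR/ort against MRL/MpJ gave 2 beside 22.6%: Npas2 at 1.47 (SE 0.25, adjusted p = 1.15e-05) and Per2 at -0.59 (SE 0.09). C57BL/6 against MRL/MpJ gave 2 beside 14.8%: Arntl at 0.85 (SE 0.14) and Nr1d1 at 0.69 (SE 0.15). Npas2 was 5.65, 3.49, 3.92, 3.84 and 4.53 CPM in STR/ort, above every joint of C57BL/6 (1.66 to 2.65) and MRL/MpJ (0.85 to 2.64). The calls of Per1 and Per2 were each lost when any of 5 libraries was left out, at 0.50 to 0.74 and -0.65 to -0.55. Per1 was also lost with housekeeping scaling (0.51), and Per2 with the RUVg factor (-0.53) and with the muscle level as a covariate (-0.54). Other values moved with the strains at 1-day. Against MRL/MpJ, STR/ort joints had 5 of 6 muscle genes lower (a sum of 30100 to 52400 against 58900 to 77400 CPM), 5 of 5 erythroid genes lower, and 6 of 6 cartilage, 5 of 5 bone and 5 of 5 synovium and fibroblast genes higher (the last at 17500 to 22000 against 7230 to 9580 CPM). Against C57BL/6, 0 of 6 muscle genes were called, 3 of 5 erythroid genes were lower, and 3 of 5 synovium and fibroblast genes were higher (10600 to 15300 CPM in C57BL/6). C57BL/6 joints had 6 of 6 cartilage, 5 of 5 bone and 4 of 5 synovium and fibroblast genes higher than MRL/MpJ joints. The immediate early genes summed to 211 to 902 CPM in STR/ort, 169 to 233 in C57BL/6 and 225 to 286 in MRL/MpJ, with 6 and 5 of 8 called higher in STR/ort. The part of these in the clock gene differences was not tested, other than for muscle.

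At 1-week STR/ort against MRL/MpJ gave 9 of 10 clock genes, every member but Per2, beside 24.4% of all genes, and against C57BL/6 6 of 10 beside 22.2%. Npas2 was 15.8, 19.9, 11.3 and 17.3 CPM in STR/ort, 2.15 to 3.03 in MRL/MpJ and 2.77 to 5.67 in C57BL/6, and the differences were 2.63 (SE 0.23, adjusted p = 1.72e-10) and 1.91 (SE 0.19, adjusted p = 4.18e-09). Dbp was lower by 6.19-fold than in MRL/MpJ and by 2.91-fold than in C57BL/6 (log2 differences -2.63, SE 0.25, and -1.54, SE 0.25). Nr1d2, Nr1d1 and Tef were lower against both, by log2 differences of -1.20, -1.45 and -0.79 against MRL/MpJ and -1.21, -0.99 and -0.77 against C57BL/6. Arntl was higher than in MRL/MpJ by 0.90 (SE 0.14), while in C57BL/6 its libraries, at 25.3 to 29 CPM, lay within the range of STR/ort. Per3 (-0.83) and Bhlhe41 (-1.04) were called against MRL/MpJ only, and whether their differences from the 2 strains differ was not tested. Per1 was higher than in C57BL/6 by 0.78 and than in MRL/MpJ by 0.77, with replicate 4 of STR/ort at 94.6 CPM beside 28.6 to 46.8 in the other 3, and without it by 0.32 (adjusted p = 0.332) and 0.31 (adjusted p = 0.374). Both calls were also lost with housekeeping scaling (0.65 and 0.63). C57BL/6 against MRL/MpJ gave 4 clock genes beside 8.53%: Dbp at -1.09 (SE 0.20), Arntl at 0.89 (SE 0.13), Bhlhe41 at -0.84 (SE 0.18) and Npas2 at 0.72 (SE 0.25), the last lost when any of 7 libraries was left out.

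Levels of tissue markers in STR/ort joints at 1-week also differed from the other strains. Muscle was lower in 6 of 6 genes against MRL/MpJ and 3 of 6 against C57BL/6, erythroid genes were lower in 5 of 5, and cartilage (6 of 6), bone (5 of 5) and synovium and fibroblast genes (5 of 5) were higher against both. With the muscle level as a covariate Tef was -0.46 against C57BL/6 and -0.35 against MRL/MpJ, under the fold threshold, and Per1 against MRL/MpJ (0.90, adjusted p = 0.0593) and Npas2 between C57BL/6 and MRL/MpJ (0.65, adjusted p = 0.0724) were also no longer called. The calls of Dbp, Nr1d1, Nr1d2, Arntl, Per3, Bhlhe41 and Npas2 in STR/ort were kept. With the RUVg factor as covariate, 11 in place of 19 calls were left over the 3 strain pairs. Those lost were Tef (-0.32 and -0.23) and Per1 against both strains, Nr1d1 against C57BL/6 (-0.54), Nr1d2 (-0.48) and Bhlhe41 (-0.40) against MRL/MpJ, and Npas2 between C57BL/6 and MRL/MpJ. Fkbp5 was higher than in C57BL/6 by 1.32 (SE 0.12) and was also called higher than in MRL/MpJ (adjusted p = 1.28e-10), and Nfil3 was higher by 1.14 (SE 0.14) and 1.02 (SE 0.15). The 7 glucocorticoid-induced genes summed to 727 to 1080 CPM in STR/ort, 310 to 374 in C57BL/6 and 311 to 380 in MRL/MpJ. Heat shock genes summed to 3350 to 4440, 2570 to 3340 and 2570 to 2900 CPM in the same order. The part of these lists in the clock gene differences was not tested.

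At 2-weeks STR/ort against C57BL/6 gave Arntl alone, beside 9.78% of all genes: 10.7, 11, 12.9, 19.7 and 12.4 CPM against 21.8, 20.9, 20.7, 19.9 and 22.2 (-0.65, SE 0.17, adjusted p = 0.0058). The joints did not overlap, though replicate 4 of STR/ort lay just under the C57BL/6 range. Without replicate 1 or replicate 2 of STR/ort the call was lost, with differences no closer to 0 than -0.58, and it was also lost with housekeeping scaling (-0.57, adjusted p = 0.0134). STR/ort against MRL/MpJ (13.8% of all genes) and C57BL/6 against MRL/MpJ (9.83%) gave 0 clock genes by edgeR and by DESeq2. At an unadjusted p below 0.05 (edgeR) there were 5 and 1 clock genes, beside 7354 and 5902 of all 17310 genes. The group means of Dbp, Per3 and Bhlhe41 at 2-weeks were above those of every group of the other times, with Dbp at 26.6 to 30.2 CPM in MRL/MpJ, 28 to 39.5 in C57BL/6 and 13.4 to 37.1 in STR/ort, which cannot be told apart from the batch.

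Injured joints were compared with uninjured contralateral joints of the same strain and time. The labels name the mouse at 2-weeks only, and at 1-week MRL/MpJ and STR/ort have 5 injured and 4 uninjured libraries, so not every library has its partner. Npas2 was the clock gene called most often with injury. It was higher in the injured than in the uninjured mean in 8 of the 9 pairs of groups, STR/ort at 1-day being the exception, and was called higher in 5. At 1-day in C57BL/6 it was 7.1, 4.21, 4.47, 7.56 and 4.44 CPM in injured and 2.02, 1.66, 2.62, 2.65 and 2.46 in uninjured joints, without overlap (1.27, SE 0.22, adjusted p = 0.000109). It was then the only clock gene called, beside 5.6% of all genes. In MRL/MpJ at 1-day it was 0.83 higher (SE 0.26, adjusted p = 0.0699), which missed the threshold. No clock gene was called there by edgeR beside 2.02% of all genes, and 1 was called by DESeq2. At an unadjusted p below 0.05 (edgeR) there was 1 clock gene, beside 2749 of all 17310 genes. In STR/ort at 1-day Npas2 was 4.95, 3.42, 3.38, 3.36 and 4.96 CPM in injured and 5.65, 3.49, 3.92, 3.84 and 4.53 in uninjured joints (-0.13, SE 0.21, adjusted p = 0.793). The effect of injury on Npas2 differed between strains at 1-day (adjusted p = 0.0175, edgeR), beside 2.93% of all genes that did, and it was the only clock gene to do so. Beside Npas2, the summed level of the 5 synovium and fibroblast genes at 1-day was 12200 to 18000 CPM in injured and 10600 to 15300 in uninjured C57BL/6 joints, with 1 gene called higher, and 16500 to 20100 against 17500 to 22000 in STR/ort, with 0 called. Marrow neutrophil markers summed to 7060 to 8980 CPM in injured and 9970 to 13000 in uninjured C57BL/6 joints, and to 9050 to 10800 against 10100 to 12700 in STR/ort. The 7 glucocorticoid-induced genes summed to 458 to 903 against 315 to 392 CPM in C57BL/6 and 861 to 1130 against 405 to 533 in STR/ort. The part of these lists in the difference of Npas2 was not tested.

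At 1-week Npas2 was the only clock gene called in each strain. It was 4.45, 6.8, 6.08, 5.23 and 5.17 CPM in injured against 2.15, 3.03, 2.32 and 2.95 in uninjured MRL/MpJ joints (1.11, SE 0.24, adjusted p = 0.00325, beside 3.13% of all genes). It was 6.8, 7.83, 6.58, 9.16 and 10.1 against 2.77, 3.28, 4.38, 5.67 and 5.01 in C57BL/6 (0.94, SE 0.19, adjusted p = 0.000863, beside 5.82%). In STR/ort it was 32.3, 29.2, 21.7, 17.8 and 25.9 against 15.8, 19.9, 11.3 and 17.3 (0.65, SE 0.17, adjusted p = 0.0055, beside 9.21%). The joints overlapped in STR/ort only. There the call was lost without injured replicate 1 or uninjured replicate 3 (lowest value 0.51) and with the muscle level as a covariate (0.42, adjusted p = 0.185), muscle being 13600 to 29800 CPM in injured and 27200 to 53600 in uninjured joints. Synovium and fibroblast genes were called higher in 4 of 5 in MRL/MpJ, with a sum of 10900 to 13100 CPM in injured and 7010 to 10600 in uninjured joints. In C57BL/6 all 5 were called higher, at 10900 to 16700 against 6170 to 9630 CPM, and in STR/ort 2 were, at 24000 to 35300 against 16900 to 32600 CPM. Their part in the differences of Npas2 was not tested. The injury effect of no clock gene differed between strains at 1-week by edgeR or DESeq2, beside 0.901% of all genes by edgeR. At an unadjusted p below 0.05 (edgeR) there was 1 clock gene, beside 1892 of all 17310 genes. That clock gene was Arntl (adjusted p = 0.133), which passed with the muscle level as a covariate (adjusted p = 0.0305, beside 4.72% of all genes). It also passed with the replicate number as a block (adjusted p = 0.0165, with 550 genes called in place of 156). No label says whether the numbers pair the joints at 1-week. In STR/ort the joints with the same number had Arntl at 46.9 and 26.6, 46.7 and 34.7, 32.9 and 19.3, and 32.3 and 29.4 CPM, injured before uninjured.

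At 2-weeks the labels name the mouse of each joint. Npas2 was higher in the injured joint in 15 of 15 mice, as the mouse-by-mouse values show: in STR/ort the pairs were 3.12 and 0.939, 2.46 and 0.846, 4.09 and 1.53, 8.73 and 4.03, and 5.82 and 1.44 CPM, injured before uninjured. The difference was 1.40 in STR/ort (SE 0.32, adjusted p = 0.00275, beside 4.66% of all genes), the joints of different mice overlapping, and 1.48 with the mouse as a replicate block (adjusted p = 4.07e-06). In C57BL/6 it was 0.77 (SE 0.32, adjusted p = 0.149) without and 0.75 (adjusted p = 0.00646) with the block, and in MRL/MpJ 0.61 (SE 0.31, adjusted p = 0.704) without and 0.61 (adjusted p = 0.0511) with it. Without the block no clock gene was called in C57BL/6 (2.95% of all genes) or MRL/MpJ (1.16%) by edgeR or DESeq2. At an unadjusted p below 0.05 (edgeR) there were 1 and 0 clock genes, beside 3883 and 1298 of all 17310 genes. No clock gene differed between strains in its injury effect at 2-weeks by edgeR or DESeq2, beside 0.26% of all genes by edgeR. None had an unadjusted p below 0.05 (edgeR), beside 1327 of all 17310 genes. Synovium and fibroblast genes were called higher in 4 of 5 in STR/ort (a sum of 16500 to 22000 CPM in injured against 10200 to 13600 in uninjured joints), in 3 of 5 in C57BL/6 (14200 to 19200 against 11400 to 13400) and in 3 of 5 in MRL/MpJ (8590 to 11800 against 7660 to 9470), and their part in the difference of Npas2 was not tested. In C57BL/6 the injured joint was also the higher in 5 of 5 mice for Per3, Dbp, Tef, Nr1d2 and Bhlhe41 and in 0 of 5 for Arntl, and none of these was called, with the block either (Per3 at 0.16 with an adjusted p of 0.0734, Dbp at 0.30 with an adjusted p of 0.103). How many of all genes were higher in 5 of 5 mice was not counted. The summed muscle level in C57BL/6 was 71800 to 94400 CPM in injured and 57900 to 78000 in uninjured joints, and its part in these directions was not tested. Dbp was the higher in the injured joint in 1 of 5 mice of MRL/MpJ and 2 of 5 of STR/ort.

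**Figure D4:**
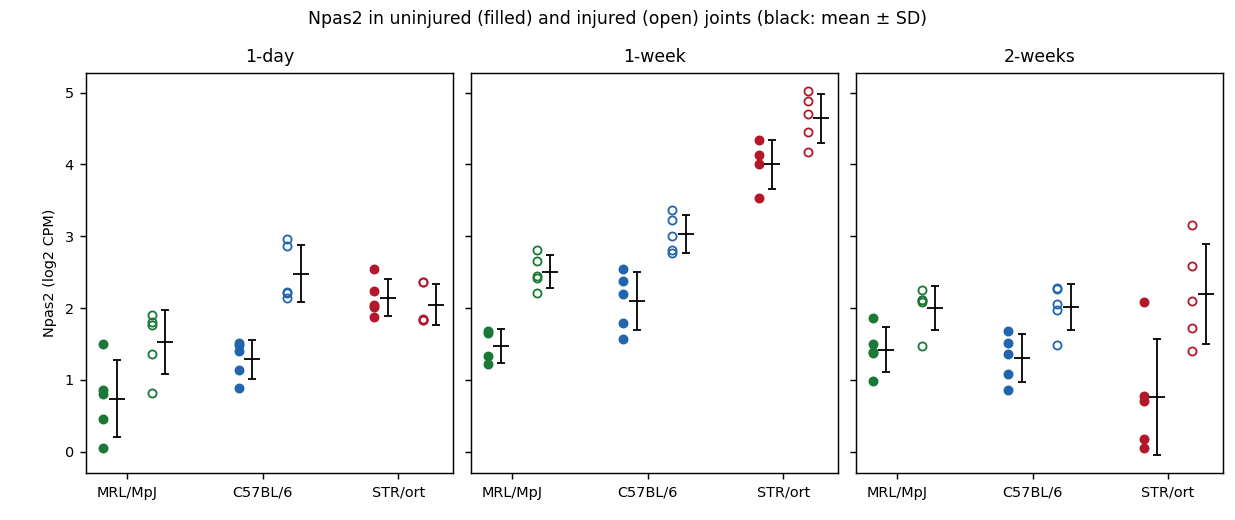
Npas2 (log2 CPM) in uninjured and injured joints by strain and time, with a point for each library and the group mean with its SD in black. Injured means are above uninjured means in every pair except STR/ort at 1-day (4.01 against 4.29 CPM).

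Dbp was the only other clock gene called with injury. In STR/ort at 1-day, 7 of 10 clock genes had an unadjusted p below 0.05 (edgeR), beside 3844 of all 17310 genes. All 7 had a negative difference, and the median difference was -0.27 over the members and -0.02 over all genes. Of all genes called there, 467 were lower and 279 higher. Nr1d1 (-0.58, SE 0.15, adjusted p = 0.0108) and Per3 (-0.34, SE 0.10, adjusted p = 0.0287) were past the p threshold and not past the fold. For Dbp, in STR/ort at 1-day, the levels were 5.21, 9.37, 11.7, 8.85 and 11.4 CPM in injured and 8.74, 17.9, 22.6, 18.8 and 14.7 in uninjured joints (-0.84, SE 0.23, adjusted p = 0.0177), beside 4.31% of all genes. The joints overlapped through uninjured replicate 1. Without injured replicate 1, uninjured replicate 3 or uninjured replicate 4 the call was lost (closest to 0, -0.68), as it was when only these joints were fitted (-0.82, adjusted p = 0.0554), with the RUVg factor (-0.64, adjusted p = 0.0958) and with the muscle level as a covariate (-0.49, adjusted p = 0.29), muscle being 15900 to 40600 CPM in injured and 30100 to 52400 in uninjured joints. The 7 glucocorticoid-induced genes summed to 861 to 1130 CPM in injured and 405 to 533 in uninjured STR/ort joints of 1-day. Their part in the difference of Dbp was not tested. In the other 8 pairs the differences of Dbp were between -0.43 and 0.29. Of the other clock genes, Arntl2, the paralogue of Arntl, was called higher with injury in C57BL/6 at 1-day (0.73, SE 0.24) and in STR/ort at 1-week (0.83, SE 0.25) and 2-weeks (0.75, SE 0.23). Bhlhe40, the paralogue of Bhlhe41, rose in STR/ort at 1-week by 0.74 (SE 0.11). Hlf fell in STR/ort at 1-day by 0.68 (SE 0.15), as did Usp2 among the output genes by 0.93 (SE 0.20). Rorb rose in STR/ort at 2-weeks by 1.21 (SE 0.24), and Tspan4 in C57BL/6 at 1-day by 0.68 (SE 0.12).

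With both joints of each mouse at 2-weeks, differences between mice within a strain could be tested on both joints at once (15 mice, 30 libraries). Of the clock genes 5 of 10 differed between mice, Per1, Per2, Per3, Npas2 and Dbp, while 1.62% of all genes did, 280 genes. With a library left out the number ran from 4 to 10 of 10, the highest without the uninjured joint of mouse 4 of MRL/MpJ. Adjusted p (edgeR) was 4.97e-06 for Per1, 0.000174 for Per2, 0.000201 for Per3, 0.00514 for Npas2 and 0.00921 for Dbp. Per1 was 83.9 and 80.6 CPM in the injured and uninjured joint of mouse 2 of STR/ort and 41 and 43.9 in mouse 3, and 89 and 83 in mouse 4 of C57BL/6 against 40.6 and 36.4 in mouse 1. Mouse 2 of STR/ort was also the highest in Per2, at 37.8 and 42.1, and in Per3, at 60.8 and 61.9. Mouse 4 of STR/ort was the lowest of its strain in Per2 (15.7 and 16.2), Per3 (30.8 and 33.7) and Dbp (11.1 and 13.4) and the highest in Arntl (22 and 19.7) and Npas2 (8.73 and 4.03), in both joints. Without mouse 4, Per1 (adjusted p = 1.38e-05) and Per3 (0.0108) were still called, beside 1.11% of all genes, and without all STR/ort mice Per1 alone (0.00324), beside 0.283%.

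**Figure D5:**
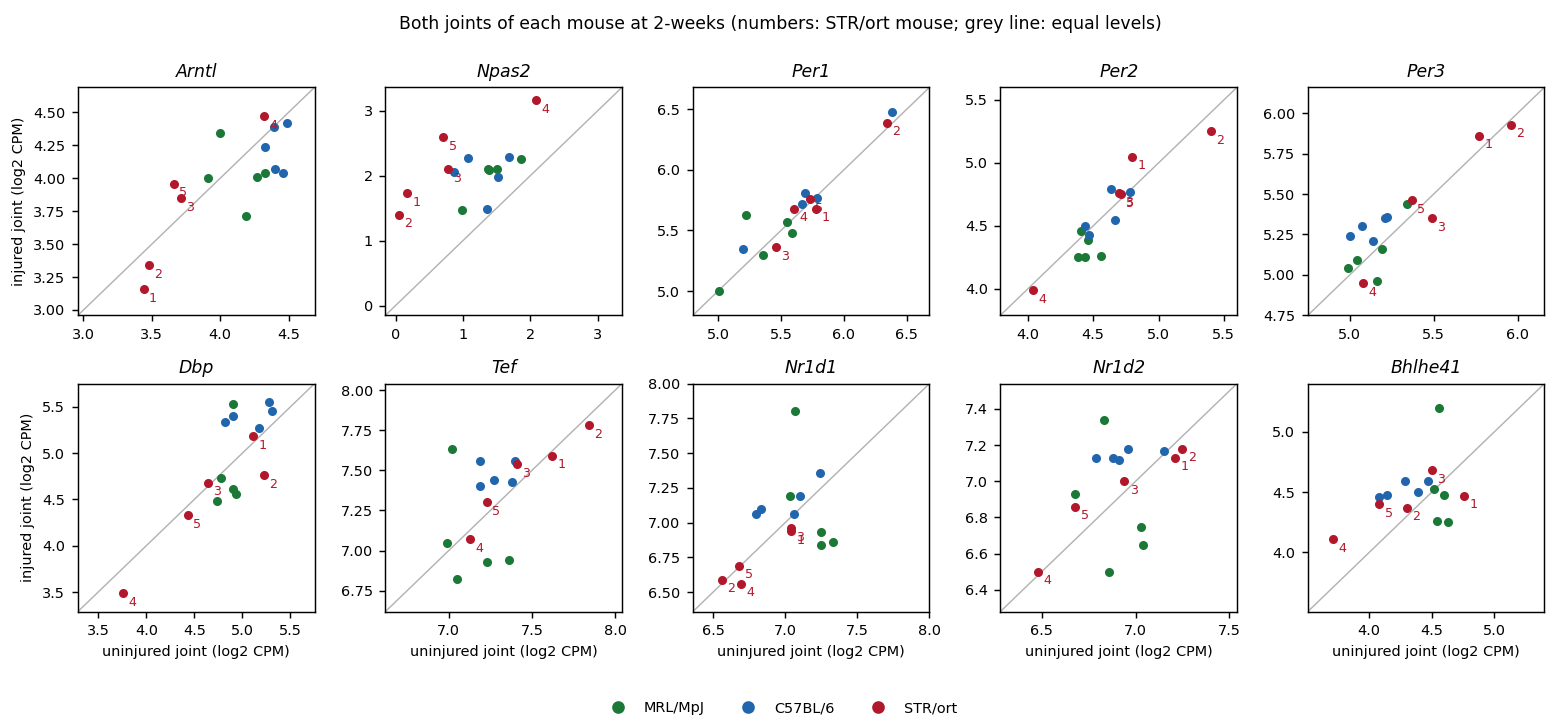
Level in the injured against the uninjured joint of each of the 15 mice at 2-weeks (log2 CPM on both axes) for the clock genes, with the line of equal levels and the STR/ort mice numbered. For Per1, Per2 and Per3 the points follow the line, and for Npas2 all 15 points lie on the side of the injured joint.

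As a description over these 15 mice, whose paired joints share an animal, the within-group deviations of the 2 joints had a Pearson r of 0.93 for Per1, 0.92 for Per3, 0.90 for Per2, 0.79 for Npas2, 0.76 for Dbp, 0.66 for Arntl, 0.43 for Nr1d2, 0.37 for Tef, 0.35 for Bhlhe41 and 0.14 for Nr1d1. The median was 0.71 over the members and 0.09 over all genes. STR/ort at 1-week held a similar pair: replicate 4 had Per1 at 86.2 CPM in the injured and 94.6 in the uninjured joint, against 28.6 to 47.6 in the other 7 libraries, and Nr1d1 at 25.2 and 21.2, its lowest values among the injured and the uninjured joints. The labels do not name the mouse at 1-week.

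The genes whose pattern over the 15 groups of batch 1 was most like that of Arntl, among 10738 non-member genes with a mean of at least 3 log2 CPM, were Tmem26 (Pearson r of group means 0.83), Sidt2 (0.82), L3mbtl3 (0.81), Polk (0.81) and Rassf8 (0.79), and the most opposed were H2-Q4 (-0.85), Tmem38b (-0.81), Slc6a6 (-0.81), Angel2 (-0.80) and Snrnp40 (-0.79). For Dbp they were Fam69a (0.90), G3bp2 (0.86), Coro7 (0.85), Cirbp (0.85) and Fam35a (0.84), and Pkp4 (-0.91), Fkbp5 (-0.89), Creld2 (-0.88), Dcaf10 (-0.86) and Als2cl (-0.86). Without the STR/ort groups of 1-week (13 groups) the same 10 genes had r of 0.71 to 0.83 and -0.77 to -0.71 with Arntl, whereas with Dbp r was 0.22 (G3bp2) to 0.69 (Fam69a) and -0.63 (Pkp4) to -0.17 (Fkbp5). Over the 6 groups of 2-weeks r ranged from -0.65 for Rassf8 to 0.87 for Polk among the 5 genes most like Arntl, and from -0.75 for Tmem38b to 0.82 for Snrnp40 among the 5 most opposed. With Dbp it ranged from -0.84 for G3bp2 to 0.49 for Coro7 among the 5 most like it, and from -0.65 for Dcaf10 to 0.02 for Pkp4 among the 5 most opposed. Group means share strain and tissue make-up, so these values are descriptions.

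Among the members, over the same 15 groups, Dbp had r of 0.96 with Nr1d2, 0.88 with Per3, 0.88 with Tef, -0.85 with Npas2 and -0.64 with Arntl. Without the STR/ort groups of 1-week these were 0.72, 0.61, 0.56, -0.44 and -0.29, and over the 6 groups of 2-weeks they were 0.73, -0.52, 0.06, 0.10 and 0.83. Arntl had r of 0.67 with Npas2 and -0.85 with Per3, which were 0.39 and -0.79 without those groups and 0.05 and -0.82 at 2-weeks.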

How the data were processed

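Whole knee joints of mice were profiled by poly(A) RNA-seq. Per the methods, the authors aligned reads to mm10 with TopHat2 2.0.11 and counted RefSeq genes with featureCounts. The deposited table holds raw read counts per gene, limited to genes with at least 2 counts in at least 5 libraries, for 17313 genes and 100 libraries. The authors' own normalization used RUVSeq, and the table holds whole numbers before that step. Here 3 repeated entries were dropped, 24 gene names had been turned into numbers, and library totals ran from 6182016 to 20986027 counts. The same count filter removed 0 genes.

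Counts were tested with the quasi-likelihood test of edgeR 4.0.16 in R 4.3.3 with TMM factors and Benjamini-Hochberg adjustment over 17310 genes, each time point in its own fit and times in a fit of the 40 uninjured libraries of batch 1. A call needed an adjusted p below 0.05 and a fold above 1.5, except for the tests of several coefficients together (strain by time, strain by injury, mice), which needed the adjusted p only. SE is the log2 difference divided by the square root of F. Levels are CPM, with 2 prior counts before logs were taken. The p-values weigh a difference against the spread between these libraries. Without the block, the injury tests treated the 2 joints of a mouse as separate libraries, also at 2-weeks. The fits were tested on simulated data.

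All 10 members entered every comparison, and those called were named. Overlap between groups was recorded for the clock genes only, so no share of all genes stands beside it. Genes outside them were named where a list gave 5 or fewer calls or a result turned on them, except that some are not reported here, and genes of like pattern were the 5 with the highest and the 5 with the lowest r for Arntl and for Dbp. The members and lists were chosen with earlier results of these data known. Alternatives were DESeq2 1.42.0, RLE size factors, a likelihood ratio test, other filters, housekeeping scaling, an RUVg factor from 25 housekeeping genes, a replicate block and leaving out each library. The muscle covariate and the fits without the 1-week libraries or STR/ort mice, and the ranges and correlations over fewer groups, were chosen after seeing the data.

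At 2-weeks the description labels give the same mouse to the joints with the same number, which pairs them (correlation of deviations -0.161 to 0.262). At 1-day and 1-week no label pairs the joints. In STR/ort at 1-week every pair of equal number correlated above 0.1 (0.102 to 0.231), and elsewhere some did not. Labelled pairs of MRL/MpJ at 2-weeks ran from -0.161 to 0.076, so this correlation cannot tell whether joints are paired.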

Additional observations from a re-analysis of the deposited data

Results flagged for a closer look

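Of 210 sets of values (10 clock genes in 21 groups), 12 held a library far from the rest of its group by Dixon's test, and chance alone flags about 1 in 20. In injured MRL/MpJ joints of 2-weeks, replicate 4 was high in Dbp (46.1 CPM, others 22.2 to 26.4), Tef (198, others 113 to 132) and Bhlhe41 (36.5, others 18.9 to 22.9), and replicate 3 was low in Npas2 (2.58, others 4.05 to 4.57). In injured MRL/MpJ joints of 1-day, replicate 5 was high in Tef (150, others 97 to 109). In uninjured STR/ort joints of 1-week, replicate 4 was high in Per2 (27.4, others 13.4 to 14.5), and in injured ones replicate 1 was low in Per3 (7.89, others 10.5 to 10.8). At 1-day, replicate 1 of uninjured STR/ort joints was low in Nr1d1 (58.5, others 75.8 to 83.6), as was replicate 4 of uninjured C57BL/6 joints (60.6, others 89 to 97.8). At 0-day, replicate 2 of STR/ort was high in Bhlhe41 (13.6, others 11.5 to 11.8). In C57BL/6 at 1-week, replicate 3 of the uninjured joints was high in Per2 (17, others 14.3 to 14.9) and replicate 4 of the injured joints in Nr1d1 (70.9, others 60.8 to 63.5).

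Differences between strains in an effect were tested as interactions with edgeR. The injury effect on Npas2 at 1-day differed between strains with an adjusted p of 0.0175. The course over time in uninjured joints differed for all 10 clock genes, with adjusted p of 2.89e-06 for Tef, 2.92e-06 for Nr1d2, 5.85e-07 for Nr1d1, 0.0023 for Per1, 0.025 for Per2, 3.15e-05 for Per3, 3.22e-06 for Dbp, 2.92e-06 for Arntl, 0.000582 for Bhlhe41 and 0.00011 for Npas2.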

How the results depend on the processing

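Of 85 calls of clock genes, 85 were kept with the likelihood ratio test, with filterByExpr and with no count filter, 84 with DESeq2 and with RLE size factors, 79 with housekeeping scaling and 67 with RUVg. With the muscle level as a covariate, which was not run for the differences between mice, 66 were kept, 13 were lost and 1 reversed, Tef in STR/ort against C57BL/6 at 0-day (-0.14). With a library left out, a call was kept in 2763 fits and lost in 93. The number of clock genes called was 1 with the fit of the compared groups only, 1 with the muscle covariate, 1 with RUVg and 4 with the replicate block for injury at 1-day (2 in the report). It was 2 with the compared groups only and 2 with the replicate block for injury at 2-weeks (1 in the report), and 2 with the muscle covariate and 2 with the replicate block for strain by injury (1). The block added Npas2 in MRL/MpJ (0.86, adjusted p = 0.0148) and Nr1d1 in STR/ort (-0.61, adjusted p = 0.00157) at 1-day, where no label says whether the numbers pair the joints. RUVg gave 11 calls between strains at 1-week (19) and 2 at 2-weeks (1), where housekeeping scaling gave 0. Strain by time gave 4 of 10 without the 1-week libraries. Differences between mice (5) gave 8 with the likelihood ratio test (1111 genes called in place of 280), 9 with RUVg (2161 genes), 1 without the STR/ort mice and 2 without mouse 4 of STR/ort. With a library left out, the counts ranged from 4 to 8 between strains at 0-day (6; lowest without replicate 4 of MRL/MpJ), 5 to 8 at 1-day (7), 17 to 20 at 1-week and 0 to 2 at 2-weeks, from 2 to 7 for 1-day against 0-day (6; lowest without 0-day replicate 4 of MRL/MpJ), 9 to 10 for 1-week against 0-day, 11 to 14 for 1-week against 1-day and 9 to 10 for strain by time. They ranged from 1 to 3 for injury at 1-day, 2 to 4 at 1-week and 1 to 1 at 2-weeks, 1 to 2 for strain by injury, and 4 to 10 for mice (10 without the uninjured joint of mouse 4 of MRL/MpJ, 9 without its injured joint). The cause of these changes was not tested. Housekeeping scaling moved the median log2 difference of all genes to -0.13 for STR/ort against C57BL/6 at 0-day and against both strains at 1-week. Depth limits Npas2 and Dbp most, with lowest counts of 8 and 13.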
